A study of Mus musculus with 12 samples.

Results

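The integrins and laminins described here are 38 genes of the 39423 in the deposited tables. They were taken by name alone, as the genes named Itga or Itgb with 1 or 2 further characters or Lama, Lamb or Lamc with a digit, without the integrin-like gene Itgbl1. They comprised 18 integrin alpha chains, 9 integrin beta chains, 5 laminin alpha chains, 3 laminin beta chains and 3 laminin gamma chains. The cells were 3T3-L1, a mouse preadipocyte line, transfected with nontargeting siRNA (siCtrl) or with siRNA against PRMT1 (siPRMT1), an arginine methyltransferase. All cells received the adipogenic mixture DMI (dexamethasone, 3-isobutyl-1-methylxanthine and insulin) for 24 h (day 1) or 72 h (day 3). In each of the 4 conditions 3 mRNA libraries were sequenced. The samples come from 1 cell line with a transient knockdown. The labels do not say that replicates were separate cultures, so p-values measure the spread between these libraries, which may be technical.

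Integrins are transmembrane receptors made of an alpha and a beta chain that bind matrix proteins or ligands on other cells, and connect them to the actin cytoskeleton through talins and kindlins. The alpha chain largely sets the ligand: Itga3, Itga6 and Itga7 bind laminins, Itga1, Itga2, Itga10 and Itga11 bind collagens, and Itga5, Itga8, Itgav and Itga2b bind fibronectin, vitronectin or other ligands through the motif Arg-Gly-Asp (RGD). Laminins are secreted trimers of an alpha, a beta and a gamma chain, and form the basement membrane that surrounds mature adipocytes, whereas preadipocytes lie in a matrix rich in fibronectin and fibrillar collagens.

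Transcript levels are given as the deposited FPKM, which allows genes of different length to be compared. Differences are log2 fold changes of edgeR's quasi-likelihood test on the deposited counts. The value after ± is the standard error for a log2 fold change and the SD (n = 3) for an FPKM. A gene was called where the Benjamini-Hochberg adjusted p over all genes tested was under 0.05 and the absolute log2 fold change was over 0.5. The libraries held 15116462 to 42357137 counts, so that 3 counts, the limit that a count of 0 allows, corresponded to 0.0708 to 0.198 CPM, for counting error only.

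At day 1, Prmt1 was at 82.9, 83.4 and 91.3 FPKM in siCtrl and 43.8, 38.6 and 41.4 FPKM in siPRMT1 libraries. At day 3, Prmt1 was at 111, 120.4 and 140.3 FPKM and 62.02, 71.7 and 68.5 FPKM. The groups did not overlap at either day. Its log2 fold change was -1.11 ± 0.076 (adjusted p = 0.000985) at day 1. At day 3 it was -0.88 ± 0.088 (adjusted p = 1.22e-05). The preadipocyte marker list (9 genes) summed to 1702 to 1971 FPKM at day 1 and 686 to 943 FPKM at day 3, and the adipocyte list (9 genes) to 118 to 165 and 2250 to 3125 FPKM. The library siCtrl day 1 replicate 3 stood apart: its median absolute log2 distance to the other libraries of its group was 0.202, against 0.0603 to 0.140 for the other 11 libraries. Calls that change without it are given both ways.

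Of the 38 genes, 18 had a mean over the 12 libraries of at least 1 FPKM (11 integrins and 7 laminins), 10 of at least 10 FPKM and 5 of at least 50 FPKM. Those 5 were Itgb1, the beta chain shared by most matrix receptors, Itga5, the alpha chain of the fibronectin receptor, and the laminin chains Lama4, Lamb1 and Lamc1. In siCtrl cells at day 1 the order was Itgb1 (mean 146 FPKM), Itga5 (137), Lamc1 (101), Lamb1 (76.6), Lama4 (65.2), Lamb2 (39.6), Itga6 (24.00), Itgb5 (20.9), Itgav (18.1) and Itgb3 (13.8). The libraries of Itgb1 and Itga5, of Itga6 and Itgb5, and of Itgb5 and Itgav overlapped. In siCtrl cells at day 3 it was Itgb1 (mean 101 FPKM), Lamb1 (90.5), Itga5 (82.5), Lamc1 (75.2), Itga6 (70.8), Lama4 (65.8), Itgb5 (22.5), Lamb2 (16.3), Itgav (13.5) and Itgb3 (9.22), and no neighbours in this order overlapped. In siPRMT1 cells Itga5 led at day 1 (mean 173 FPKM, before Itgb1 at 135), and Itgb1 led at day 3 (127 FPKM, before Itga5 at 87.4), with no overlap of the pair at either day.

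**Figure D1:**
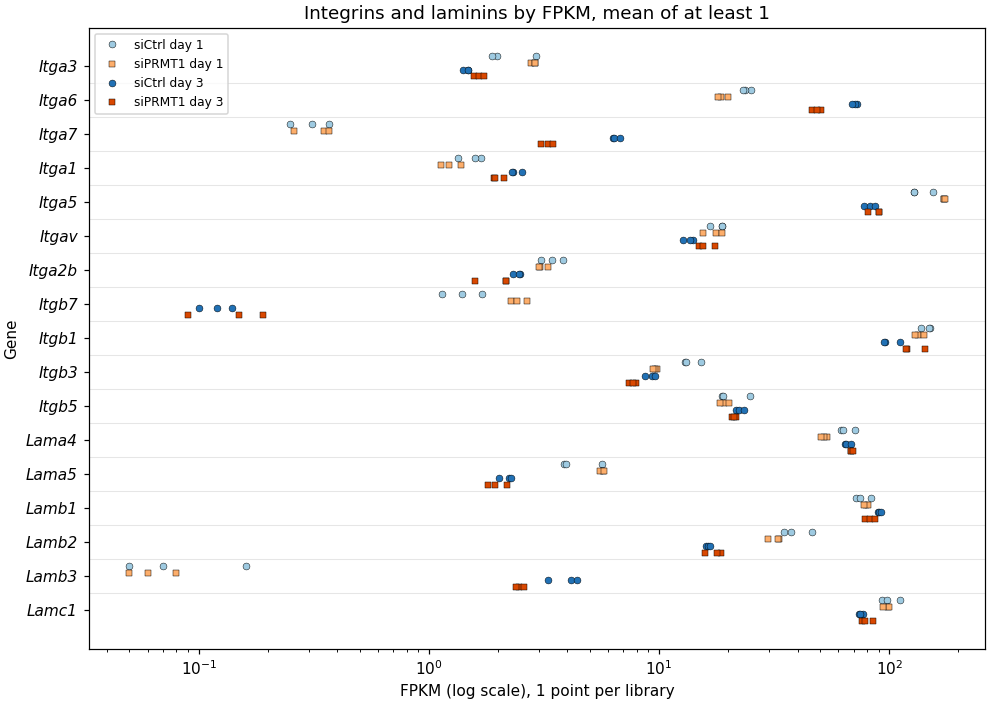
FPKM on a log scale (x axis) of integrins and laminins with a mean of at least 1 FPKM (y axis), 1 point per library and 3 libraries in each of the 4 conditions. Itga7 and Lamb3 lie higher at day 3 than at day 1 in every library, and Itgb7 lies lower.

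Summed over all alpha chains, integrin alpha transcripts were at 188 ± 14.1 FPKM (SD, n = 3) in siCtrl cells at day 1 and 182 ± 3.07 FPKM at day 3. Itga5 supplied 72.9% of the sum at day 1 and 45.4% at day 3, and Itga6 12.8% and 39.0%. In siPRMT1 cells the sum was 218 ± 1.61 FPKM at day 1, with 79.3% from Itga5 and 8.61% from Itga6, and 163 ± 3.59 FPKM at day 3, with 53.8% and 29.8%. The ratio of Itga6 to Itga5 was lower in every siPRMT1 library than in any siCtrl library of the same day. It was 0.103 to 0.115 against 0.151 to 0.195 at day 1, and 0.513 to 0.621 against 0.791 to 0.934 at day 3. Among beta chains, Itgb1 supplied 75.6% to 80.9% of the sum in each condition. Laminin sums were dominated by Lama4 (89.4% to 95.9% of the alpha chains), Lamb1 (65.9% to 81.7% of the beta chains) and Lamc1 (96.0% to 99.4% of the gamma chains), the chains of the laminin trimer Lama4-Lamb1-Lamc1.

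**Figure D2:**
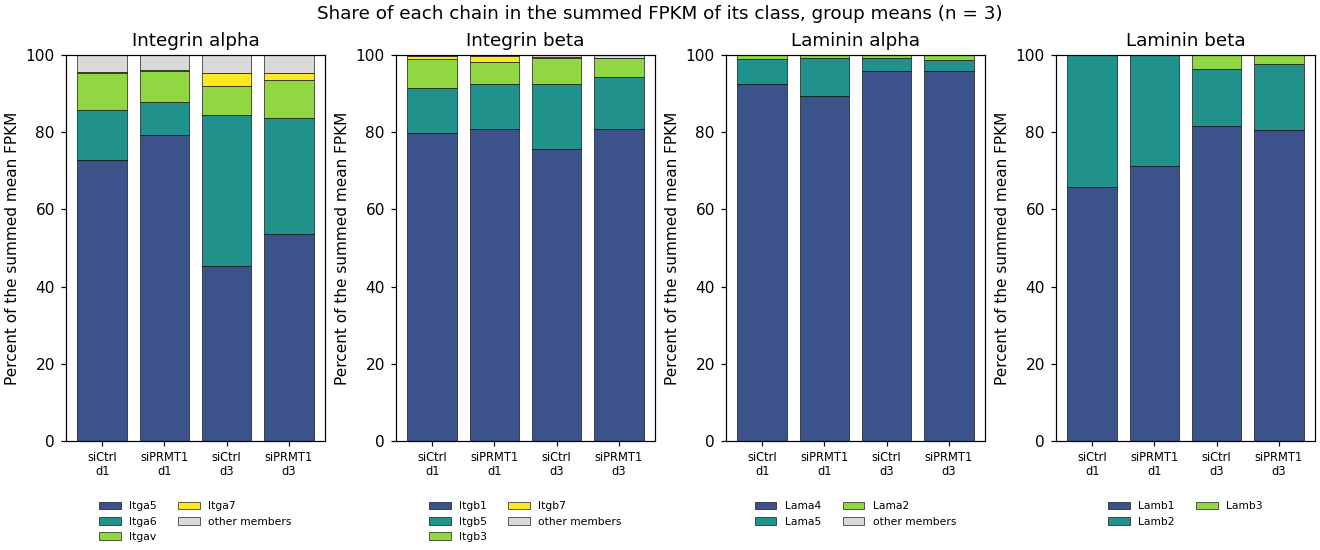
Percent of the summed mean FPKM (y axis) that each chain supplied within the integrin alpha, integrin beta, laminin alpha and laminin beta chains, in each of the 4 conditions (n = 3). The share of Itga6 among alpha chains is 12.8% in siCtrl cells at day 1 and 39.0% at day 3, and that of Lamb2 among laminin beta chains is 34.0% and 14.7%.

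The course from day 1 to day 3 asks how these receptors and ligands change as the cells differentiate. In siCtrl cells, 27 of the 38 genes passed the filter on low counts, 8 were called higher and 10 lower at day 3. In siPRMT1 cells 28 passed, 9 were called higher and 8 lower. Both courses called 8 genes higher, among them Itga1, Itga6, Itga7, Itgad, Itgal, Itgb2 and Lamb3, and 8 lower, namely Itga2b, Itga3, Itga5, Itga11, Itgam, Itgb7, Lama5 and Lamb2. No gene was called in opposite directions. The share of all genes called in both courses was not counted. Itgb1 and Itgb3 were called (lower) in siCtrl cells and not in siPRMT1 cells. Lama2 was called (higher) in siPRMT1 cells and not in siCtrl cells. Of all genes tested, 22.7% were called higher and 20.4% lower in siCtrl cells, and 19.0% and 17.4% in siPRMT1 cells. Of the integrins and laminins tested, 29.6% and 37.0% were called in siCtrl and 32.1% and 28.6% in siPRMT1 cells. FPKM of the 2 days did not overlap for 22 of 27 in siCtrl cells (64.3% of all genes) and for 21 of 28 in siPRMT1 cells (66.2% of all genes). The median log2 fold change of the genes tested was -0.50 in siCtrl (all genes, -0.0042) and -0.18 in siPRMT1 cells (all genes, 0.0022).

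**Figure D3:**
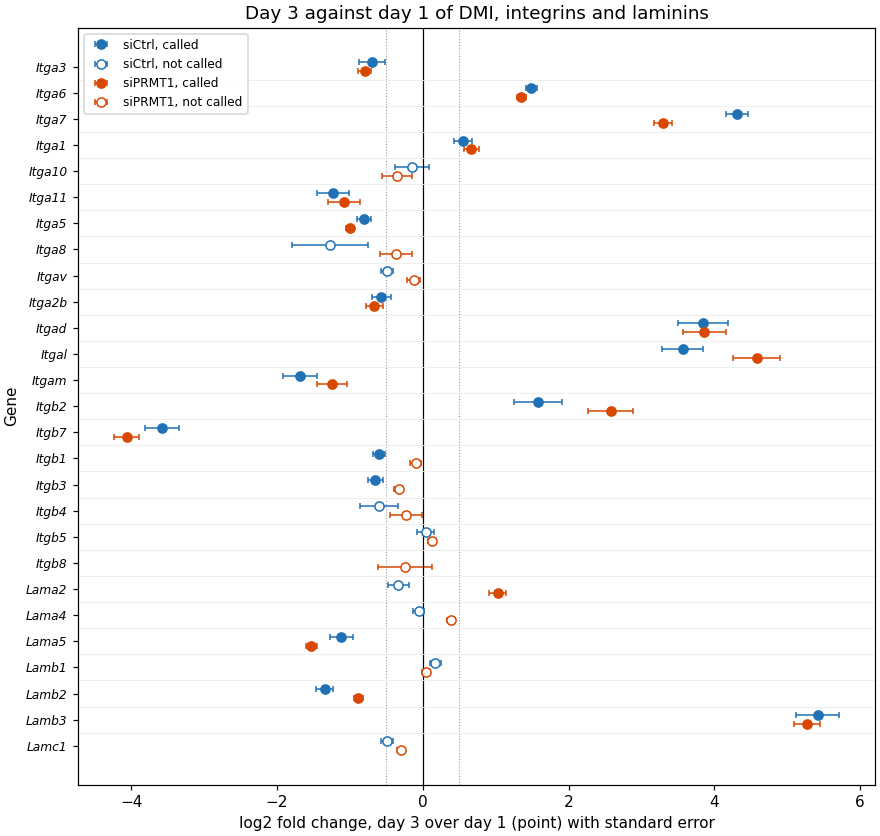
Log2 fold change of day 3 over day 1 with its standard error (x axis) for the integrins and laminins shown (y axis), in siCtrl and in siPRMT1 cells, filled where called, with dotted lines at the threshold of 0.5. Lamb3, Itga7, Itgad and Itgal lie beyond 3 on the higher side in both, and Itgb7 beyond -3 on the lower side.

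The knockdown comparisons ask which of these genes PRMT1 depletion changed at each day. At day 1, 23 of the 38 genes were tested: the leukocyte chain Itgb7 was called higher, and Itgb3, the beta chain of the vitronectin receptor, and Lama2, a laminin alpha chain, were called lower. Of all genes tested, 1.95% were called higher and 1.61% lower. FPKM of the groups did not overlap for 9 of the 23, 4 higher and 5 lower (31.7% of all genes). At day 3, 27 were tested: Lama2 and Itga8 were called higher, and Itga6, Itga7, Itgal and Lamb3 lower. Here 2.84% of all genes were called higher and 3.80% lower, and FPKM did not overlap for 14 of the 27 (34.2% of all genes). The median log2 fold change was -0.10 at day 1 (all genes, 0.0096) and 0.06 at day 3 (all genes, 0.0073). Over both days 8 genes were called, of 23 tested at day 1 and 27 at day 3. Lama2 was called at both, in opposite directions. The share of all genes called at either day was not counted. The knockdown comparisons and the 2 courses share libraries, and are not independent of each other.

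**Figure D4:**
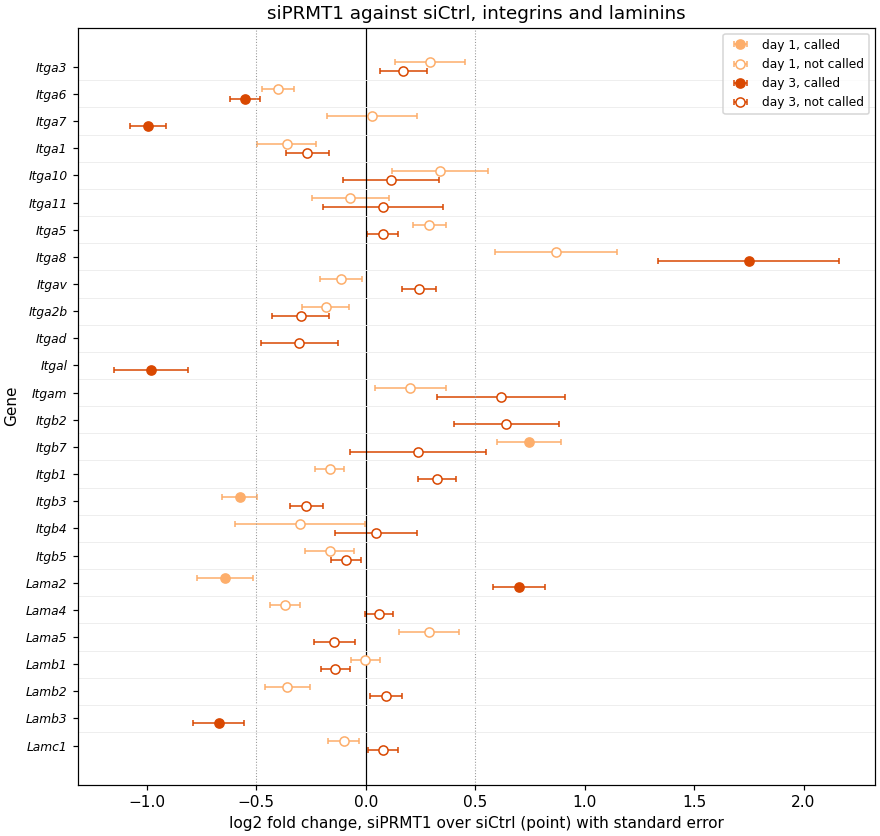
Log2 fold change of siPRMT1 over siCtrl with its standard error (x axis) for the integrins and laminins shown (y axis), at day 1 and at day 3, filled where called, with dotted lines at the threshold of 0.5. Itga6, Itga7, Itgal and Lamb3 are called lower at day 3, and Lama2 is called lower at day 1 and higher at day 3.

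Among laminin-binding alpha chains, Itga6 and Itga7 rose over time and fell under knockdown at day 3. Itga6 (chr2:71786886-71858427, plus strand, GRCm38) pairs with Itgb1 in most cells and with Itgb4 in epithelia. At day 1, Itga6 was at 25.04, 23.7 and 23.3 FPKM in siCtrl and 18.6, 19.9 and 17.96 FPKM in siPRMT1 libraries. At day 3, Itga6 was at 72.4, 71.3 and 68.8 FPKM and 50.4, 46.3 and 48.8 FPKM. Every day 3 library was above every day 1 library, and every siPRMT1 library was below every siCtrl library of its day. Itga6 rose 2.81-fold in siCtrl cells (log2 1.49 ± 0.072, adjusted p = 1.26e-07) and 2.55-fold in siPRMT1 cells (log2 1.35 ± 0.064, adjusted p = 4.63e-10). Under knockdown it fell at day 3 (log2 -0.55 ± 0.068, adjusted p = 5.43e-05), a call made in all 6 fits without 1 library. At day 1 the log2 fold change was -0.40 ± 0.072 (adjusted p = 0.0174), short of the threshold of 0.5. The difference between the days was not called (log2 -0.13 ± 0.089, adjusted p = 0.373).

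At day 1, Itga7 (chr10:128933773-128958286, plus strand), the main laminin-binding alpha chain of muscle, was at 0.31, 0.25 and 0.37 FPKM in siCtrl and 0.26, 0.35 and 0.37 FPKM in siPRMT1 libraries. At day 3, Itga7 was at 6.28, 6.39 and 6.76 FPKM and 3.06, 3.28 and 3.45 FPKM. The siRNA groups overlapped at day 1, and every siPRMT1 library was lower at day 3. Itga7 rose 19.9-fold in siCtrl cells (log2 4.31 ± 0.15, adjusted p = 1.43e-08) and 9.85-fold in siPRMT1 cells (log2 3.30 ± 0.12, adjusted p = 4.53e-11). On the log2 scale the knockdown difference was 0.03 ± 0.20 (adjusted p = 0.95) at day 1. It was -0.99 ± 0.084 (adjusted p = 2.31e-06) at day 3. The difference between the days (interaction) was -1.004 ± 0.20 (adjusted p = 0.00468), called in all 12 fits without 1 library. Of the 28 integrins and laminins tested for the interaction, 2 were called higher and 1 lower, against 4.77% and 3.47% of all genes tested.

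Adipocyte markers were lower under knockdown at both days, as was Itga6, whereas Itga7 was lower at day 3 and overlapped at day 1. At day 1 the adipocyte list summed to 158 to 165 FPKM in siCtrl and 118 to 133 FPKM in siPRMT1 cells, with 4 of the 8 genes tested called lower (1.61% of all genes). At day 3 it summed to 2911 to 3125 FPKM in siCtrl and 2250.3 to 2451 FPKM in siPRMT1 cells, with 4 of 9 genes called lower (3.80% of all genes). The muscle list (5 genes) was at 0.77 to 1.29 FPKM at day 1, and at day 3 at 10.4 to 13.3 FPKM in siCtrl and 8.97 to 9.80 FPKM in siPRMT1 cells. Its sum came from Des and Acta1. At day 3 mean Des was 6.45 FPKM in siCtrl and 3.80 FPKM in siPRMT1 cells, while Acta1 was not lower (5.23 and 5.46 FPKM). The defining factors Myod1 and Myog had group means of at most 0.01 FPKM. In such bulk samples fewer cells of a kind and less RNA per cell cannot be told apart, and the part of these markers in the results was not tested.

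Itga3, another laminin-binding alpha chain, went down. It fell from 1.98, 1.88 and 2.92 to 1.48, 1.41 and 1.48 FPKM in siCtrl cells (log2 -0.70 ± 0.18, adjusted p = 0.00694). In siPRMT1 cells it fell from 2.78, 2.88 and 2.89 to 1.57, 1.65 and 1.73 FPKM (log2 -0.80 ± 0.087, adjusted p = 2.27e-06). Its siCtrl day 1 replicate 3 lay apart from the other 2 libraries. Without it the siCtrl course was no longer called (log2 -0.48, adjusted p = 0.00169). The knockdown difference at day 1 was 0.29 ± 0.16 (adjusted p = 0.30), and was called higher without that library (log2 0.50, adjusted p = 0.00149). At day 3 it was 0.17 ± 0.11 (adjusted p = 0.290).

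**Figure D5:**
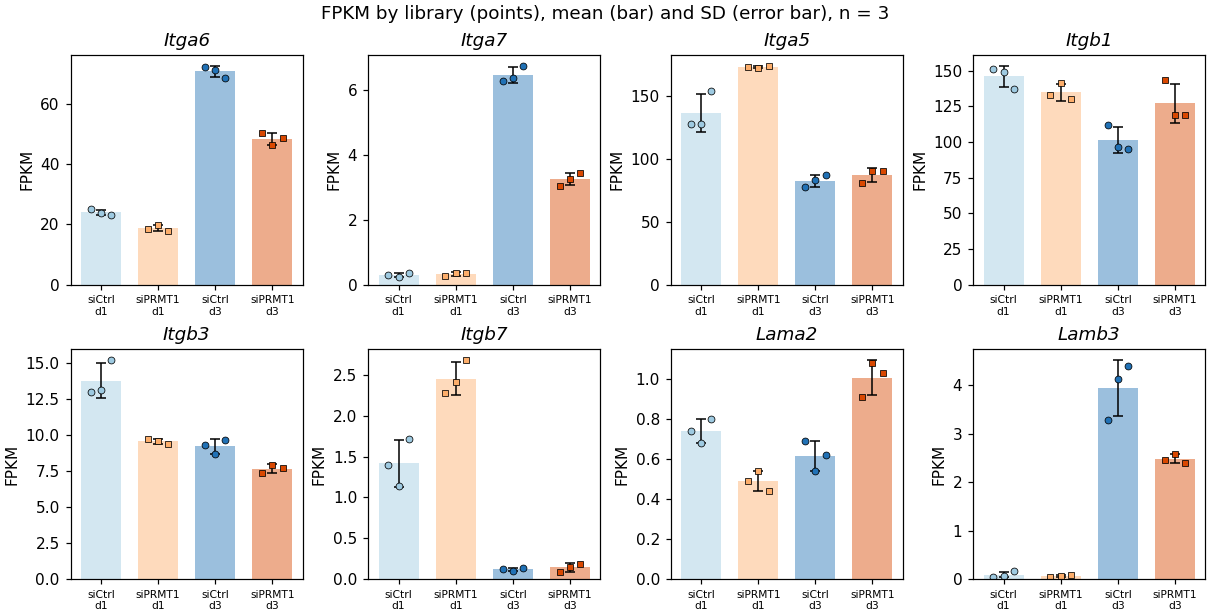
FPKM (y axis, from 0) of 8 integrins and laminins in siCtrl and siPRMT1 cells at day 1 (d1) and day 3 (d3), with each library as a point, the mean as a bar and the SD as an error bar (n = 3). Itga6, Itga7 and Lamb3 are lower in siPRMT1 cells at day 3, Itgb3 at day 1, and Lama2 is lower at day 1 and higher at day 3.

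Among RGD-binding alpha chains Itga5 (chr15:103344286-103366791, minus strand) was the most abundant. At day 1, Itga5 was at 128, 128 and 154 FPKM in siCtrl and 173, 173 and 174 FPKM in siPRMT1 libraries. At day 3, Itga5 was at 77.5, 82.95 and 86.9 FPKM and 81.1, 90.4 and 90.7 FPKM. All day 3 libraries were below all day 1 libraries, and the siPRMT1 libraries were above the siCtrl libraries at day 1 and overlapped them at day 3. Itga5 fell 1.74-fold in siCtrl cells (log2 -0.80 ± 0.095, adjusted p = 5.23e-05) and 2.0-fold in siPRMT1 cells (log2 -1.0 ± 0.056, adjusted p = 2.62e-09). The knockdown difference was not called at day 1 (log2 0.29 ± 0.074, adjusted p = 0.0515) or at day 3 (log2 0.08 ± 0.073, adjusted p = 0.504).

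Itgav, which pairs with Itgb1, Itgb3 and Itgb5, ranged from 12.7 to 18.8 FPKM over the 12 libraries and was called in no comparison. Its siCtrl course, -0.50 ± 0.084 (adjusted p = 0.000578), lay just short of the fold threshold. It was called lower without siCtrl day 1 replicate 3 (log2 -0.55, adjusted p = 4.68e-06) and without each of the 3 siCtrl day 3 libraries (log2 -0.56, -0.51 and -0.55), and with DESeq2 or no filter on low counts (log2 -0.51 in both). Itga2b, the alpha chain of the platelet fibrinogen receptor, ranged from 1.59 to 3.82 FPKM. It fell in siCtrl (log2 -0.57 ± 0.13, adjusted p = 0.00351) and in siPRMT1 cells (log2 -0.67 ± 0.12, adjusted p = 0.000199). The siCtrl call was lost without siCtrl day 1 replicate 3 (log2 -0.49, adjusted p = 0.00161).

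Itga8, the alpha chain of a nephronectin receptor, was at the edge of detection. At day 1, Itga8 held 21, 20 and 14 counts in siCtrl and 29, 39 and 26 counts in siPRMT1 libraries. At day 3, Itga8 held 1, 5 and 11 counts and 23, 26 and 22 counts. Its siPRMT1 libraries were above its siCtrl libraries at both days. It was called higher under knockdown at day 3 (log2 1.75 ± 0.41, adjusted p = 0.00928), in all 6 fits without 1 library, with a log2 fold change of 2.48 without siCtrl day 3 replicate 3. Limma on log2(FPKM + 1) with no filter lost this day 3 call (log2 0.14). At day 1 the knockdown difference was 0.87 ± 0.28 (adjusted p = 0.10), and was called without siCtrl day 1 replicate 3 (log2 0.88, adjusted p = 0.0489). Its siCtrl course was -1.27 ± 0.52 (adjusted p = 0.0593), and was called lower without siCtrl day 1 replicate 1, siCtrl day 1 replicate 3 or siCtrl day 3 replicate 3 (log2 -1.54, -1.26 and -2.04), with no filter on low counts (log2 -1.29) and in 1 model over all libraries (log2 -1.27).

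Collagen-binding alpha chains were low and moved in both directions over time. At day 1, Itga1 was at 1.68, 1.59 and 1.34 FPKM in siCtrl and 1.38, 1.13 and 1.22 FPKM in siPRMT1 libraries. At day 3, Itga1 was at 2.53, 2.32 and 2.29 FPKM and 2.13, 1.91 and 1.93 FPKM. All day 3 libraries were above all day 1 libraries. It rose in siCtrl (log2 0.56 ± 0.12, adjusted p = 0.00318) and in siPRMT1 cells (log2 0.66 ± 0.11, adjusted p = 8.66e-05), and the siCtrl call was lost without siCtrl day 1 replicate 3 (log2 0.46) or siCtrl day 3 replicate 1 (log2 0.47). Itga11, a fibroblast collagen receptor chain, held 12 to 70 counts per library. It fell in siCtrl (log2 -1.24 ± 0.22, adjusted p = 0.000831) and siPRMT1 cells (log2 -1.08 ± 0.22, adjusted p = 0.000665). Itga10 held 20 to 52 counts per library and was called in no comparison, and Itga2 held 0 to 8 counts and was not tested.

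Itgb1 and Itgb3 were the integrin beta chains outside leukocytes with a call. At day 1, Itgb1 (chr8:128685654-128733579, plus strand) was at 151, 149 and 137 FPKM in siCtrl and 133, 141 and 129.8 FPKM in siPRMT1 libraries. At day 3, Itgb1 was at 112, 96.3 and 95.3 FPKM and 143, 119 and 119 FPKM. The siRNA groups overlapped at day 1, and every siPRMT1 library was higher at day 3. In siCtrl cells Itgb1 fell 1.52-fold (log2 -0.60 ± 0.080, adjusted p = 0.000118), and in siPRMT1 cells the course was -0.10 ± 0.077 (adjusted p = 0.285). Under knockdown Itgb1 was not called at day 1 (log2 -0.17 ± 0.066, adjusted p = 0.165) or at day 3, where the adjusted p passed but not the fold (log2 0.33 ± 0.087, adjusted p = 0.0188). The interaction was called (log2 0.51 ± 0.12, adjusted p = 0.0107), at the edge of the fold threshold. The call was lost in 6 of 12 fits without 1 library (log2 0.41 to 0.49). These were siCtrl day 1 replicates 1 and 2, siPRMT1 day 1 replicate 3, siCtrl day 3 replicates 2 and 3 and siPRMT1 day 3 replicate 1. It was also lost in 6 of the 9 other alternatives, with RLE normalization (log2 0.497), at least 10 counts in every library (log2 0.493), the 3 limma fits and offsets for GC content and length. With these offsets it was 0.39, and the siCtrl course (log2 -0.49) was then not called either.

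At day 1, Itgb3 (chr11:104608000-104670476, plus strand) was at 13.02, 13.1 and 15.2 FPKM in siCtrl and 9.76, 9.57 and 9.38 FPKM in siPRMT1 libraries. At day 3, Itgb3 was at 9.35, 8.67 and 9.65 FPKM and 7.39, 7.96 and 7.70 FPKM. Every siPRMT1 library was below every siCtrl library of its day. The knockdown difference was called at day 1 (log2 -0.58 ± 0.079, adjusted p = 0.00648). It narrowly missed the adjusted p without siPRMT1 day 1 replicate 3 (log2 -0.57, adjusted p = 0.0515). The day 1 call was also lost with limma on log2(FPKM + 1), with or without a filter (log2 -0.48). At day 3 the knockdown difference fell short of the fold threshold (log2 -0.27 ± 0.074, adjusted p = 0.0215). The difference between days was not called (log2 0.33 ± 0.11, adjusted p = 0.0670). Its course was called in siCtrl (log2 -0.65 ± 0.097, adjusted p = 0.000254) and not in siPRMT1 cells (log2 -0.33 ± 0.062, adjusted p = 0.000393). Itgb5, another partner of Itgav, was at 18.5 to 24.9 FPKM in all 12 libraries and was called in no comparison. Itgb4, the epithelial partner of Itga6, held 24 to 77 counts per library, at most 0.52 FPKM, and was not called either. Its siCtrl course was -0.60 ± 0.26 (adjusted p = 0.0734), and FPKM of the 2 days overlapped. The course was called lower without siCtrl day 1 replicate 1 (log2 -0.89), with no filter on low counts (log2 -0.61) and with offsets for GC content and length (log2 -0.75). Without siCtrl day 1 replicate 3 it was weaker and not called (log2 -0.43, adjusted p = 0.143).

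Of the 8 leukocyte chains, Itgb7, the partner of Itga4 and Itgae, had the highest mean level. At day 1, Itgb7 (chr15:102215994-102233405, minus strand) was at 1.40, 1.14 and 1.71 FPKM in siCtrl and 2.28, 2.41 and 2.68 FPKM in siPRMT1 libraries. At day 3, Itgb7 was at 0.12, 0.10 and 0.14 FPKM and 0.090, 0.15 and 0.19 FPKM. The siPRMT1 libraries were all higher at day 1, and the groups overlapped at day 3, at a small part of the day 1 level. It fell 11.9-fold in siCtrl (log2 -3.58 ± 0.23, adjusted p = 7.89e-07) and 16.7-fold in siPRMT1 cells (log2 -4.07 ± 0.17, adjusted p = 1.39e-10). The rise under knockdown at day 1 (log2 0.75 ± 0.15, adjusted p = 0.0225) was also called without siCtrl day 1 replicate 3 (log2 0.87, adjusted p = 0.000221). This call was lost without each of the other 5 day 1 libraries, siCtrl replicates 1 and 2 and siPRMT1 replicates 1 to 3 (log2 0.62 to 0.77, adjusted p from 0.0600 to 0.115). Over all genes, edgeR called 267 higher at day 1, 504 without siCtrl day 1 replicate 3 and 61 to 165 in these 5 fits. Limma on log2(FPKM + 1) with no filter also lost the Itgb7 call (log2 0.52, adjusted p = 0.0988). Itga4 held 1 count over all 12 libraries and Itgae 0 to 4 counts per library.

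Itgal, Itgad and Itgb2 rose from very low levels, with Itgb2 being the beta chain that pairs with the other 2 in leukocytes. At day 1, Itgal held 9, 8 and 10 counts in siCtrl and 2, 2 and 2 counts in siPRMT1 libraries. At day 3, Itgal held 73, 72 and 94 counts and 38, 60 and 52 counts, or 0.67, 0.88 and 0.73 FPKM and 0.32, 0.42 and 0.39 FPKM. Its siPRMT1 libraries were lower in FPKM at both days. It was called lower at day 3 (log2 -0.98 ± 0.17, adjusted p = 0.00101), and at day 1 it was under the filter and not tested. Limma on log2(FPKM + 1) with no filter lost the day 3 call (log2 -0.35). Itgad held 1 to 10 counts per library at day 1 and 38 to 67 at day 3, and Itgb2 held 4 to 11 and 18 to 54.

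Itgal rose by 3.56 ± 0.28 (adjusted p = 3.19e-06) in siCtrl and 4.58 ± 0.32 (adjusted p = 3.05e-08) in siPRMT1 cells on the log2 scale. Itgad rose by 3.84 ± 0.35 (adjusted p = 8.02e-06) and 3.86 ± 0.29 (adjusted p = 6.21e-08), and Itgb2 by 1.58 ± 0.33 (adjusted p = 0.00234) and 2.58 ± 0.31 (adjusted p = 6.67e-06). Under knockdown at day 3 Itgad (-0.30 ± 0.18, adjusted p = 0.262) and Itgb2 (0.64 ± 0.24, adjusted p = 0.0797) were not called. Itgb2 was called higher without siPRMT1 day 3 replicate 1 (log2 0.81, adjusted p = 0.0304), with no filter on low counts (log2 0.66, adjusted p = 0.0393) and with offsets for GC content and length (log2 0.71, adjusted p = 0.0355). The rise of Itgad in siCtrl cells was 4.57 on the log2 scale without siCtrl day 1 replicate 1.

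Itgam, another partner of Itgb2, fell from 80, 40 and 42 to 12, 7 and 18 counts in siCtrl cells (log2 -1.68 ± 0.23, adjusted p = 0.000164). In siPRMT1 cells it fell from 60, 53 and 56 to 16, 31 and 23 counts (log2 -1.25 ± 0.21, adjusted p = 0.000146). Itgax held 0 to 5 counts per library and Itgb2l none. Itgam, Itgad, Itgax and Itgal lie on chromosome 7, and the treatment of reads that match several related genes is not given in the sources used here. The leukocyte marker list (8 genes) summed to 3.79 to 6.66 FPKM over all libraries, mostly from Cd14 and Cd68. Its defining gene Ptprc held no reads, and Cd3e and Adgre1 had group means of at most 0.01 FPKM.

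Among laminin alpha chains, Lama2 was lower under knockdown at day 1 and higher at day 3. Lama2 (chr10:26981285-27617191, minus strand) is the alpha chain of the muscle and nerve basement membrane. At day 1, Lama2 was at 0.74, 0.68 and 0.80 FPKM in siCtrl and 0.49, 0.54 and 0.44 FPKM in siPRMT1 libraries. At day 3, Lama2 was at 0.69, 0.54 and 0.62 FPKM and 0.91, 1.08 and 1.03 FPKM. The siPRMT1 libraries were all lower at day 1 and all higher at day 3, with 83 to 320 counts per library. On the log2 scale the knockdown difference was -0.64 ± 0.13 (adjusted p = 0.0235) at day 1. It was 0.70 ± 0.12 (adjusted p = 0.000869) at day 3. The interaction was 1.36 ± 0.18 (adjusted p = 0.000199), called in all 12 fits without 1 library. The day 3 difference was called in all 6 fits without 1 library. The day 1 difference was called without siCtrl day 1 replicate 3 (log2 -0.59, adjusted p = 0.00470). This call was lost without each of the other 5 day 1 libraries, siCtrl replicates 1 and 2 and siPRMT1 replicates 1 to 3 (log2 -0.75 to -0.58, adjusted p from 0.0615 to 0.107). Over all genes, edgeR called 220 lower at day 1, 369 without siCtrl day 1 replicate 3 and 62 to 177 in these 5 fits. Limma on log2(FPKM + 1) with no filter lost the Lama2 knockdown calls of both days (log2 -0.22 and 0.31). From day 1 to day 3 Lama2 rose 2.04-fold in siPRMT1 cells (log2 1.03 ± 0.11, adjusted p = 2.95e-06). The siCtrl course was -0.33 ± 0.14 (adjusted p = 0.0642). The Schwann or neural marker list (4 genes) summed to 1.06 to 1.97 FPKM at day 1 and 4.81 to 6.71 FPKM at day 3, mainly from S100b, with Sox10 at no more than 0.04 FPKM in any library.

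The promoters of Lama2 and Lamb3 are shown because these laminin chains changed under knockdown at day 3 in opposite directions, and that of Itgb7 because it fell most from day 1 to day 3 among the genes here. They are RefSeq sequences on GRCm38.p6, each with 250 bases before and 50 after the start, and 24 of the 38 genes, among them 4 of the 8 called under knockdown, had an entry. Capitals mark matches to TTNCNNAA (a site type bound by C/EBP factors), AGGTCA (a nuclear receptor half-site) or GGGCGG (a GC box), searched on both strands. Of all 32851 promoters, 40.7% held the first, 16.3% the second and 35.7% the third, so that a match is a description of the sequence.
Lama2 promoter (chr10:27616893-27617192, minus strand): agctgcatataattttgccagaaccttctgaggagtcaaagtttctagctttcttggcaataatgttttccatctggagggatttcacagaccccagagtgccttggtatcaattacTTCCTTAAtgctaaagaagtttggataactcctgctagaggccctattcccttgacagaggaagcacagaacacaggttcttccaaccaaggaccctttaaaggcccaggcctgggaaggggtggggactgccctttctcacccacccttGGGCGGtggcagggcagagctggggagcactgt
Lamb3 promoter (chr1:193301744-193302043, plus strand): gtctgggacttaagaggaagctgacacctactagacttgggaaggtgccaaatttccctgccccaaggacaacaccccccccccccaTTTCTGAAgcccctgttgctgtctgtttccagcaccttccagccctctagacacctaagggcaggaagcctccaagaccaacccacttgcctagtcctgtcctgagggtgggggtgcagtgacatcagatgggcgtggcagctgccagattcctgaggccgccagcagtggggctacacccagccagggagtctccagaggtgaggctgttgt
Itgb7 promoter (chr15:102231886-102232185, minus strand): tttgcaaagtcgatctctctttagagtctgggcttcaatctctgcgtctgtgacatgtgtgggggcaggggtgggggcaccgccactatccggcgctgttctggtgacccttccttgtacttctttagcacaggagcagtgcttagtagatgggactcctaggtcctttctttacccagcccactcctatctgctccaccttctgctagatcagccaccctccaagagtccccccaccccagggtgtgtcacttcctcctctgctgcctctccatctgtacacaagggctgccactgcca
The Lama2 window held a C/EBP-type match 133 bases before the start and a GC box 18 bases after it, the Lamb3 window a C/EBP-type match 163 bases before the start, and the Itgb7 window none of the 3 motifs. Lamb3 has another RefSeq promoter entry (chr1:193301993-193302292, plus strand), not printed, which held none of them.

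At day 1, Lama4, the laminin alpha chain of fat and vessel basement membranes, was at 61.8, 62.7 and 71.04 FPKM in siCtrl and 53.9, 52.2 and 50.7 FPKM in siPRMT1 libraries. At day 3, Lama4 was at 64.3, 64.8 and 68.1 FPKM and 68.5, 68.2 and 69.8 FPKM. The siPRMT1 libraries were all lower at day 1 and all slightly higher at day 3. No comparison called it: at day 1 the knockdown difference was -0.37 ± 0.069 (adjusted p = 0.0197), at day 3 it was 0.06 ± 0.065 (adjusted p = 0.569), and the interaction, 0.45 ± 0.093 (adjusted p = 0.00650), passed on p and not on fold. Lama5, an alpha chain of epithelial and vascular basement membranes, fell from 3.87, 3.95 and 5.67 to 2.01, 2.23 and 2.27 FPKM in siCtrl cells (log2 -1.12 ± 0.16, adjusted p = 0.000159). In siPRMT1 cells Lama5 fell from 5.71, 5.53 and 5.76 to 1.81, 1.94 and 2.18 FPKM (log2 -1.53 ± 0.075, adjusted p = 7.24e-10). The interaction was -0.41 ± 0.18 (adjusted p = 0.165), and was called without siCtrl day 1 replicate 3 (log2 -0.64, adjusted p = 0.000989). Lama1 held 1 count over all libraries and Lama3 0 to 7 counts per library.

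Of the laminin beta chains, Lamb2 fell over time while Lamb1 was not called. At day 1, Lamb2 was at 34.8, 37.6 and 46.3 FPKM in siCtrl and 33.1, 29.8 and 32.9 FPKM in siPRMT1 libraries. At day 3, Lamb2 was at 15.96, 16.3 and 16.6 FPKM and 15.8, 18.6 and 17.95 FPKM. It fell 2.55-fold in siCtrl (log2 -1.35 ± 0.11, adjusted p = 4.58e-06) and 1.84-fold in siPRMT1 cells (log2 -0.88 ± 0.068, adjusted p = 7.43e-08). The ratio of Lamb2 to Lamb1 FPKM was 0.484 to 0.555 in siCtrl and 0.369 to 0.425 in siPRMT1 libraries at day 1. At day 3 it was 0.178 to 0.181 and 0.201 to 0.225. This ratio was thus lower in siPRMT1 libraries at day 1 and higher at day 3. The knockdown difference of Lamb2 itself was called at neither day. It was -0.36 ± 0.10 (adjusted p = 0.0752) at day 1. At day 3, where the FPKM of the groups overlapped, it was 0.09 ± 0.073 (adjusted p = 0.4145). The interaction of Lamb2 passed on p and not on fold (log2 0.47 ± 0.14, adjusted p = 0.0370). It was called without siCtrl day 1 replicate 1 or siPRMT1 day 3 replicate 1 (log2 0.56 and 0.54). It was also called with no filter on low counts (log2 0.52) and with offsets for GC content and length (log2 0.62). Without siCtrl day 1 replicate 3, the library that stood apart, the interaction was smaller (log2 0.31, adjusted p = 0.0283) and not called. Lamb1 was at 71.9 to 92.1 FPKM, with a knockdown difference of -0.0013 ± 0.066 (adjusted p = 0.993) at day 1. At day 3 the difference was -0.14 ± 0.066 (adjusted p = 0.166).

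Lamb3 (chr1:193294353-193343878, plus strand) is the beta chain of an epithelial laminin whose alpha chain is Lama3. At day 1, Lamb3 was at 0.050, 0.070 and 0.16 FPKM in siCtrl and 0.050, 0.060 and 0.080 FPKM in siPRMT1 libraries, from 5 to 15 counts. At day 3, Lamb3 was at 3.29, 4.13 and 4.40 FPKM and 2.47, 2.59 and 2.40 FPKM, from 229 to 451 counts. The siRNA groups overlapped at day 1, and every siPRMT1 library was below every siCtrl library at day 3. The rise was 42.8-fold in siCtrl (log2 5.42 ± 0.29, adjusted p = 2.63e-07) and 38.7-fold in siPRMT1 cells (log2 5.27 ± 0.17, adjusted p = 1.50e-11), the largest fold change of each course among the integrins and laminins tested. For the knockdown at day 1 Lamb3 was under the filter and not tested. Under knockdown Lamb3 fell at day 3 (log2 -0.67 ± 0.12, adjusted p = 0.00110). This call was lost with limma on log2(FPKM + 1), with or without a filter (log2 -0.496). The interaction was -0.15 ± 0.51 (adjusted p = 0.887).

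The epithelial marker list (6 genes) moved with Lamb3. It summed to 0.08 to 0.23 FPKM at day 1, and at day 3 to 17.3 to 17.7 FPKM in siCtrl and 11.2 to 11.7 FPKM in siPRMT1 cells. This sum came from Krt8, Krt14 and Krt18, while Epcam, Cdh1 and Krt5 were at no more than 0.03 FPKM in any library.

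Lamc1, the abundant gamma chain, was at 73.9 to 112 FPKM and was called in no comparison. Its siCtrl course, -0.50 ± 0.083 (adjusted p = 0.000544), lay just short of the fold threshold. It was -0.42 (adjusted p = 3.28e-05) without siCtrl day 1 replicate 3, and was called lower without each of the other 5 libraries, siCtrl day 1 replicates 1 and 2 and siCtrl day 3 replicates 1 to 3 (log2 -0.57 to -0.52). It was also called with DESeq2 or no filter on low counts (log2 -0.51 in both) and with offsets for GC content and length (log2 -0.57). Lamc3 held 0 to 8 counts per library.

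The remaining genes were at or under the level of a few counts. Of the 38, 10 were tested in no comparison: Itga2, Itga4, Itga9, Itgae, Itgax, Itgb2l, Itgb6, Lama1, Lama3 and Lamc3. They held at most 8 counts in any library, and differences among them were not detectable at this depth. At day 1, Itgb8 held 8, 4 and 4 counts in siCtrl and 11, 20 and 9 counts in siPRMT1 libraries, under the filter. Without siCtrl day 1 replicate 3 it was tested and called higher under knockdown (log2 1.43, adjusted p = 0.0359), from these few counts. A further row named for Itgae with a suffix, on an unplaced scaffold, held 8 to 19 counts and was not counted among the 38. The endothelial list (5 genes) summed to at most 0.89 FPKM in any library.

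Genes of the same matrix and adhesion machinery were taken from lists written by name. Of 16 basement membrane partners of laminins, 12 were tested at day 1 and 11 at day 3. Nid2, a linker of laminin and collagen networks, was called lower under knockdown at day 1 (log2 -0.64 ± 0.11, adjusted p = 0.0156), and none was called higher. Of all genes, 1.61% were called lower and 1.95% higher at day 1. At day 3 edgeR called none (of all genes, 3.80% lower and 2.84% higher), with 4 of 11 at an unadjusted p under 0.05. The medians were 0.04 and -0.05 on the log2 scale. From day 1 to day 3, 3 fell in siCtrl cells, namely Agrn (log2 -0.99), Col4a5 (-0.60) and Sparc (-0.51). In siPRMT1 cells 3 fell, namely Agrn (log2 -1.02), Hspg2 (-0.61) and Col4a5 (-0.53). These were 3 of 11 tested in each course, beside 20.4% of all genes called lower in siCtrl and 17.4% in siPRMT1 cells.

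Of 21 names of other integrin ligands, 19 were in the deposited tables (Ccn1 and Ccn2 were not), and 17 were tested at each day. Knockdown at day 3 raised 7 and lowered 1 of them past both thresholds (2.84% and 3.80% of all genes), with a median log2 fold change of 0.43 (all genes, 0.0073). At day 1, 1 was called higher and none lower (1.95% and 1.61% of all genes, median -0.0073), with 7 of 17 at an unadjusted p under 0.05. The difference between the days was not tested for the list as a whole. Vcam1, a ligand of the Itga4 and Itga9 receptors, was higher at day 3 (log2 0.99 ± 0.075, adjusted p = 1.01e-06). So were the fibrillin gene Fbn1 (log2 0.57), Cyr61 (0.59), the thrombospondin gene Thbs1 (0.63) and Fbln5 (0.51), while Npnt, the ligand of Itga8, was lower (-0.58). Spp1 (osteopontin) was higher at day 1 (log2 0.55 ± 0.077, adjusted p = 0.00735) and at day 3 (log2 0.55 ± 0.0995, adjusted p = 0.00154). The fibronectin gene Fn1 fell from day 1 to day 3 by 2.33 on the log2 scale in siCtrl and by 2.03 in siPRMT1 cells, as Itga5 also fell. The preadipocyte marker list at day 3 summed to 686 to 735 FPKM in siCtrl and 910 to 943 FPKM in siPRMT1 cells. Of its 9 genes, 2 were called higher (2.84% of all genes). Col1a1 and Col3a1 are in both this list and the ligand list, so the lists are not independent. At day 3 mean Col3a1 was 247 FPKM in siCtrl and 334 FPKM in siPRMT1 cells, and mean Col1a1 142 and 159 FPKM. The part of the preadipocyte markers in the result was not tested.

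Of the integrin activators and adaptors, 2 were called under knockdown. Of 40 names, 39 were in the deposited tables and 38 were tested at each day. At day 1, 1 was called lower and none higher (1.61% and 1.95% of all genes). At day 3, 1 was called higher and none lower (2.84% and 3.80% of all genes). Ptk2b, a relative of focal adhesion kinase, was lower at day 1 (log2 -0.70 ± 0.092, adjusted p = 0.00609), and Tes, a focal adhesion protein, was higher at day 3 (log2 0.60 ± 0.089, adjusted p = 0.000307). The medians were -0.03 and 0.03. Over time 6 were called higher and 8 lower in siCtrl cells, and 5 higher and 5 lower in siPRMT1 cells, where 22.7% and 20.4% and 19.0% and 17.4% of all genes were called. Kank1, a talin-binding adaptor, rose in both (log2 3.50 and 3.57), as did Ptk2b (1.39 and 1.98). Tln2, a talin, fell in both (-1.58 and -1.38), as did the kinase Fyn (-1.29 and -1.22).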

How the data were processed

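The series holds 12 libraries of 3T3-L1 mRNA, 3 for each siRNA and day, grouped by their labels. The authors sequenced poly(A) mRNA libraries on an MGI platform and deposited whole-number read counts per gene. The deposited FPKM values were recomputed from these counts, gene lengths and library totals to within 0.005. The submitters' processing notes name HISAT2 2.1.0, RSEM 1.2.6, cutadapt 1.11 and mm10. The handling of strand and of reads matching several genes is not given in the sources used here.

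Counts were tested with edgeR 4.0.16 in R 4.3.3 (TMM, filterByExpr, quasi-likelihood F test) across all genes, separately for each pair of conditions and, for the interaction, over all 12 libraries. Benjamini-Hochberg adjustment was over all genes tested. Standard errors were derived from the fold change and its F statistic. The scripts were tested on simulated counts. Alternatives were RLE normalization, other filters, DESeq2 1.42.0, a replicate block, no fold threshold, 1 model over all libraries, limma 3.58.1 on log2(FPKM + pseudocount), each library left out and, chosen after seeing the data, offsets for GC content and length. Coordinates are those of the deposited tables.

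The members, gene lists and tests were chosen with earlier results of these data known. Genes were named by rule: Prmt1, every member with a mean of at least 1 FPKM, any other member called in a comparison, and of each partner list up to 6 called genes per knockdown and up to 4 per time comparison. Other members are given by counts. Itgb4 was described for a call in alternatives after its values were seen. Results for 1 of these genes and 1 marker gene are not reported here.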

Additional observations from a re-analysis of the deposited data

Results flagged for a closer look

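The difference between the knockdown effects of the days, tested as the interaction of siRNA and time in edgeR, was called for 3 of the 28 integrins and laminins tested, 2 higher (7.14%) and 1 lower (3.57%), beside 4.77% and 3.47% of all genes. For Lama2 the log2 knockdown difference at day 3 minus that at day 1 was 1.364 (adjusted p = 0.000199), with all siPRMT1 libraries lower at day 1 and all higher at day 3. For Itga7 it was -1.004 (adjusted p = 0.00468), with the groups overlapping at day 1 and all siPRMT1 libraries lower at day 3. For Itgb1 it was 0.5093 (adjusted p = 0.0107), with the groups overlapping at day 1 and all siPRMT1 libraries higher at day 3. The Itgb1 call was made in 6 of 12 fits without 1 library and in 3 of 9 other alternatives.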

How the results depend on the processing

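Of 47 called values of integrins and laminins, 40 were called in every fit without 1 library and 26 under every other alternative that tested them, and no value changed direction past the threshold. Calls higher and lower without 1 library ranged from 0 to 4 and 0 to 2 at day 1 (with 4 and 2 without siCtrl day 1 replicate 3), 2 to 3 and 4 to 4 at day 3, 7 to 8 and 10 to 13 in the siCtrl course, 9 to 9 and 8 to 8 in the siPRMT1 course, and 1 to 2 and 1 to 3 in the interaction (3 without siCtrl day 1 replicate 3). With limma on log2(FPKM + 1) over genes of at least 1 FPKM, on log2(FPKM + 0.1), and on log2(FPKM + 1) with no filter, calls higher were 1, 1 and 0 at day 1, 0, 0 and 0 at day 3, 4, 5 and 6 in the course of siCtrl, 4, 5 and 6 in that of siPRMT1 and 0, 0 and 1 in the interaction. Calls lower were 0, 1 and 0 at day 1, 2, 3 and 2 at day 3, 5, 6 and 6 in siCtrl and 5, 6 and 5 in siPRMT1. Over all genes the 3 limma fits called 2312, 2600 and 2604 higher and 1652, 1882 and 1706 lower in the siCtrl course. In the siPRMT1 course they called 1657, 1893 and 1854 higher and 1487, 1745 and 1578 lower. With at least 10 counts in every library, which tests fewer genes, calls higher were 1 at day 3 and 1 in the interaction. They were 4 in the siCtrl course and 5 in the siPRMT1 course. The interaction also had 1 call higher with RLE normalization. Of all genes, the filter of at least 10 counts left 372 called higher at day 3 and 625 in the interaction. Without a fold threshold, 4 were called lower at day 1, 4 higher at day 3 and 4 higher in the interaction. Of all genes, 599, 1058 and 1123 were. At day 1 edgeR called 267 of all genes higher and 220 lower, and 504 and 369 without siCtrl day 1 replicate 3. Without 1 of the other day 1 libraries 61 to 165 were called higher and 62 to 177 lower. The limma fits, in the order above, called 166, 223 and 103 higher and 80, 113 and 50 lower at day 1. At day 3 they called 144, 228 and 114 higher (edgeR 399) and 244, 341 and 228 lower (edgeR 534). Same-numbered libraries correlated at -0.171 to 0.282, some best with their own number and others not. The labels do not say whether they were paired, and correlations over so few libraries cannot settle it. A fit with a replicate block called 1 higher and 2 lower at day 1, 3 (with Itgb2 added) and 4 at day 3, 8 and 11 in the siCtrl course, 9 and 8 in the siPRMT1 course, and 2 and 1 in the interaction. Over all genes the block fit called 296 higher and 240 lower at day 1, and 426 and 548 at day 3. Without 1 library, edgeR called 322 to 400 of all genes higher and 439 to 574 lower at day 3. In the siCtrl course it called 2768 to 3435 and 2798 to 3203, and in the siPRMT1 course 2672 to 2749 and 2445 to 2535. In the interaction it called 504 to 902 and 305 to 1005. Depth limits the 20 genes with a mean under 1 FPKM, 10 of which no comparison tested.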
